A study of Homo sapiens with 2 samples.

Results

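Human umbilical vein endothelial cells (HUVECs) with a high summed level of LDB2, MAGI1, ACE, DACH1, MCTP1 and GASK1B are described here. HUVECs are primary endothelial cells from the vein of the umbilical cord. The members were the top 10% of barcodes by the share of their UMIs (unique molecular identifiers, each standing for 1 captured RNA molecule) that came from these 6 genes, ranked over both libraries together among barcodes with 5000 or more UMIs and at most 10% mitochondrial UMIs. They numbered 214 of the 2138 barcodes that passed and of the 5493 barcodes in the files. The lowest member held 1726 counts per 1000000 UMIs (CPM) of the 6 genes and the next barcode below held 1721 CPM. With 45 members and 36 other barcodes within 10% of that level, no gap marked the limit of membership. Whether the members form a separate type was not tested. These counts chose the members, so every level of the 6 genes, and every comparison of members with the remaining barcodes of the same cells, is a description without a test.

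The cells had formed a monolayer in microfluidic devices with 50 µm channels and were then perfused for 4 hours with 1 of 2 suspensions. The first group received healthy red blood cells (hRBC). The second received healthy red blood cells in which 5% were pharmacologically dehydrated (5% pdRBC), with nystatin and washes high in sucrose, to lower their deformability as in sickle cell disease. Each group was 1 library of 5′ single-cell RNA sequencing (10x Genomics), so treatment and library cannot be told apart and no p-value can be given. HUVECs in a device stand for the vein wall without its other cells. The labels do not say how many devices or donors a library pools.

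Endothelial cells line blood vessels and differ between arteries, capillaries and veins in their transcription factors, junctions and matrix. LDB2 is an adaptor that joins LIM-domain transcription factors into larger complexes, and DACH1 is a transcription cofactor known for promoting the growth of arteries. MAGI1 is a scaffold protein of cell junctions. ACE, the angiotensin-converting enzyme, sits on the endothelial surface and makes angiotensin II. MCTP1 is a membrane protein with calcium-binding domains, and GASK1B is a protein of the Golgi apparatus.

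A pair of promoters is shown because MT2A had the strongest negative relation to the score that chose the members and CXCL1 the lowest fitted fold in members, as described below. MT2A encodes a metallothionein, which binds zinc, copper and cadmium, and its gene is known to respond to metals. CXCL1 encodes a chemokine that attracts neutrophils, a known target of NF-kB. Each sequence holds the 250 bases before the gene's RefSeq start in GRCh38.p14 on the plus strand, 5′ to 3′. MT2A lies at chr16:56608334-56608583 and capitals mark matches to the metal response core, TGCACNC or TGCGCNC on both strands; CXCL1 lies at chr4:73869143-73869392 and capitals mark the match to an NF-kB motif searched on both strands.
MT2A: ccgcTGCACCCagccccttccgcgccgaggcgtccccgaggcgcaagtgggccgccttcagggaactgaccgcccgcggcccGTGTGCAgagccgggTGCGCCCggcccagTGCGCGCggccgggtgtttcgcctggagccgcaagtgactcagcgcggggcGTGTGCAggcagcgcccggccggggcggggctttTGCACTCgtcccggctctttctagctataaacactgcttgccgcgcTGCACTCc
CXCL1: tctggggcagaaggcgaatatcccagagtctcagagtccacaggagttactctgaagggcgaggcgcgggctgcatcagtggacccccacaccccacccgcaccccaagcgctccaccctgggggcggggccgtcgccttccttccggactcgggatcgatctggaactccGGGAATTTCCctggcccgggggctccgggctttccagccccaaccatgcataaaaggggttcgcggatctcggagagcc
MT2A held 7 matches to the metal response core and CXCL1 held 1 match to the NF-kB motif. In windows from 250 bases before to 50 bases after the start, the metal response core was present in 29.3% and the NF-kB motif in 5.67% of 27305 RefSeq promoters. Among genes lower in members it was 39.4% and 6.25% of 160 promoters, and among genes higher in members 38.9% and 5.76% of 347. The shares over all measured genes with a promoter were 39.8% and 6.72%. Motifs of ETS (CCGGAAG), AP-1 (TGANTCA) and SOX (AACAAT) factors were also counted. Among higher genes they were present in 7.78%, 3.17% and 8.93% of promoters, and among lower genes in 14.4%, 8.75% and 5.63%. Over all measured genes they were present in 21.3%, 4.41% and 4.82%. These differences were not tested. A match is a run of letters and not a shown binding site.

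Of 769 passing hRBC barcodes, 43 were members, a share of 5.59% (95% exact Clopper-Pearson interval 4.08 to 7.46%). Of 1369 passing 5% pdRBC barcodes, 171 were members, or 12.5% (10.8 to 14.4%). The difference was 6.90 percentage points (4.37 to 9.31), and the intervals cover counting error only. The share of deposited barcodes that passed also differed, at 19.9% of 3858 for hRBC and 83.7% of 1635 for 5% pdRBC. Depth differed as well: the members' median was 8854 UMIs in hRBC and 8435 in 5% pdRBC, against 12536.5 and 10411 in the remaining barcodes. With every barcode thinned to 5000 UMIs before scoring, the shares were 5.72% and 14.0%. The part of barcode filtering in the difference was not tested. The libraries shared 9 barcode sequences, 2 of them among barcodes that passed and none among members.

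**Figure D1:**
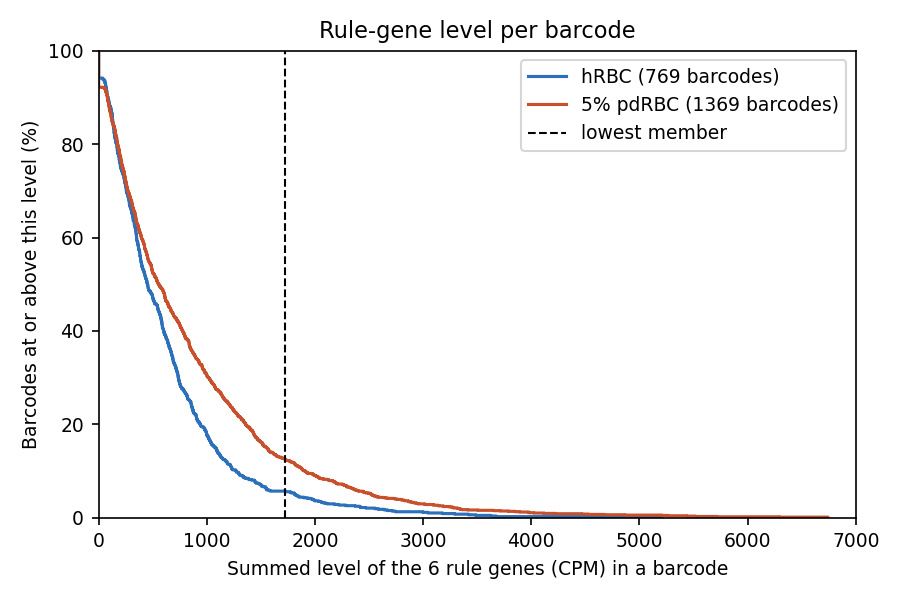
Percentage of passing barcodes (y axis) at or above each summed level of the 6 genes in CPM (x axis), for 769 hRBC and 1369 5% pdRBC barcodes; the dashed line marks the lowest member at 1726 CPM. The curves fall without a step at the line, and 5.59% of hRBC and 12.5% of 5% pdRBC barcodes lie at or above it.

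Members held a median of 21 UMIs of the 6 genes in each library, with a range of 10 to 48 in hRBC and 10 to 74 in 5% pdRBC. A median of 5 of the 6 genes was detected in a member and 3 in a remaining barcode. MCTP1 gave the largest part of the score in 26 of 43 hRBC members and 93 of 171 5% pdRBC members, and LDB2 in 11 and 48. MCTP1 stood at 1039 CPM in members and 174 in remaining barcodes of hRBC, and at 983 and 174 CPM in 5% pdRBC. LDB2 stood at 601 against 124 CPM in hRBC and 654 against 136 CPM in 5% pdRBC. The other 4 genes were lower in level: MAGI1 stood at 254 and 332 CPM in the members of hRBC and 5% pdRBC, GASK1B at 262 and 332, ACE at 162 and 156, and DACH1 at 87.2 and 103. In the remaining barcodes these 4 genes stood between 12.6 CPM (DACH1, hRBC) and 99.5 CPM (GASK1B, 5% pdRBC). In another setting members were chosen on a random part holding 1 of every 2 UMIs, and levels were read from the UMIs left over. All 6 genes were higher there, with mean log2 folds from 1.68 for GASK1B to 2.55 for DACH1. These barcodes were chosen by the same 6 genes, so this too is a description without a test.

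The cells carried endothelial markers, and each list of blood cell markers summed to at most 14.5 CPM, while single fibroblast, mural and epithelial markers were detected. The 24 listed pan-endothelial genes summed to 7846 CPM in hRBC members and 7745 CPM in 5% pdRBC members, with none at 0. In the order hRBC and 5% pdRBC members, the 8 erythroid markers, hemoglobin genes included, were all at 0. The 6 neutrophil markers were also all at 0. B cell and platelet markers each summed to 2.42 and 0.630 CPM, T and NK cell markers to 9.69 and 5.67 CPM with 8 and 7 of 10 at 0, and monocyte markers to 12.1 and 14.5 CPM with 7 of 8 at 0. Fibroblast and mural markers summed to 400 and 293 CPM with 8 and 5 of 12 at 0, of which RGS5, a regulator of G protein signalling, gave 371 and 269 CPM. RGS5 stood at 366 and 334 CPM in the remaining barcodes too. Epithelial markers summed to 87.2 and 77.4 CPM with 5 and 4 of 8 at 0, against 173 and 121 CPM in the remaining barcodes. KRT18, a keratin of simple epithelia, gave 53.3 and 51.0 CPM of this and KRT8 31.5 and 23.3 CPM.

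Each gene was compared between members and remaining barcodes within each library, as the fold of summed UMIs per total UMIs with 0.5 UMIs added. A gene was called where the fold was 1.5 or more and its 95% interval left out 1 in both libraries, in the same direction. Of 9185 genes with 200 or more UMIs, 440 were higher in members, which is 4.79%, the 6 rule genes among them. Lower in members were 204 genes, or 2.22%. Counts of called genes from a list, given below, are to be read against these shares. Scaled so that the median measured gene had no change, the split was 350 higher and 259 lower. The median gene had a log2 fold of 0.07 in hRBC and 0.05 in 5% pdRBC. The folds of the libraries had a Pearson correlation across genes of 0.545, and genes are not independent replicates. Only 3 genes were called in opposite directions by the libraries.

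**Figure D2:**
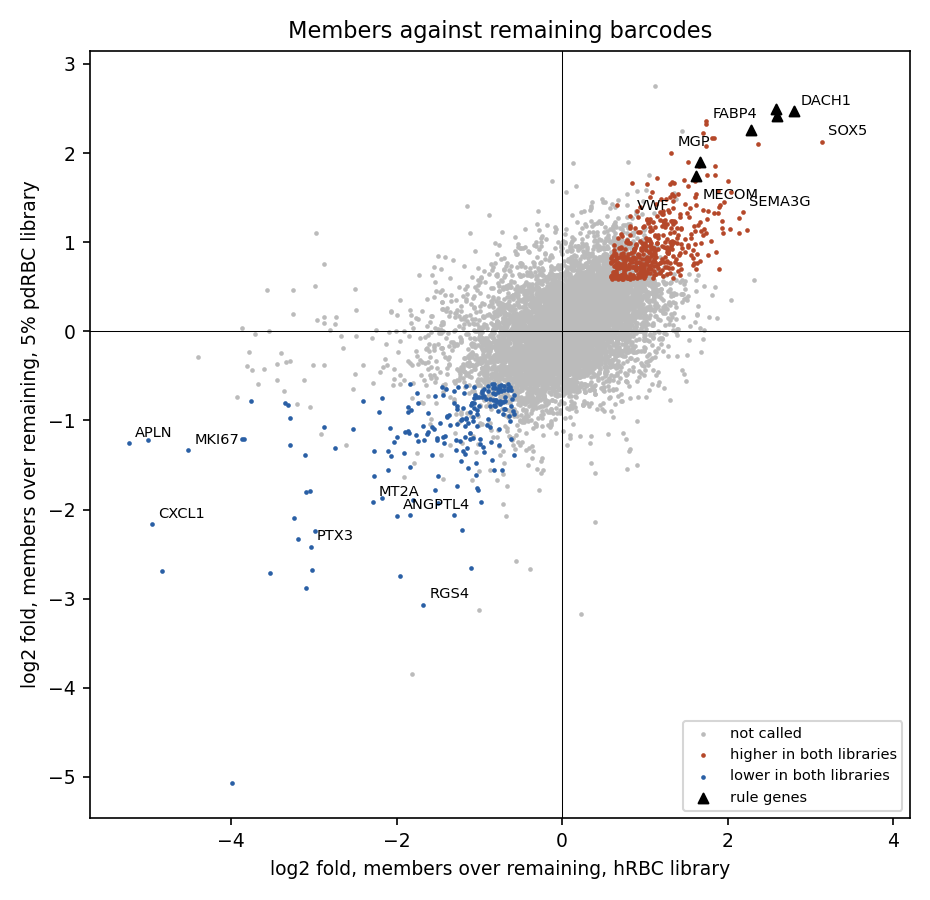
Log2 fold of members over remaining barcodes for each of 9185 measured genes in the hRBC library (x axis) and the 5% pdRBC library (y axis), with genes called in both libraries in colour and the 6 rule genes as triangles. SOX5 and FABP4 lie with the rule genes at the upper right, and APLN, MKI67 and CXCL1, at 0 UMIs in hRBC members, lie at the far left, where the position depends on the UMIs added.

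SOX5, a transcription factor of the SOX family, had the highest mean fold of the genes outside the rule. It stood at 43.6 CPM in hRBC members and 5.05 CPM in remaining barcodes, an 8.79-fold difference (4.73 to 15.1). In 5% pdRBC it stood at 30.2 and 6.95 CPM, a 4.37-fold difference (3.01 to 6.21). Most single members had no SOX5 UMI: it was absent from 30 of 43 hRBC and 138 of 171 5% pdRBC members. FABP4, a fatty acid binding protein of capillary endothelium, stood at 148 against 44.6 CPM in hRBC and 251 against 50.1 CPM in 5% pdRBC. Its folds were 3.34 (2.49 to 4.34) and 5.02 (4.42 to 5.68). Members were above remaining barcodes for both genes in both libraries. For FABP4 the call ended with members taken as the top 5%, where its mean log2 fold was 0.84 against 2.03.

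Other genes among the 15 highest had varied roles. MYH10, a heavy chain of non-muscle myosin, stood at 60.6 against 18.5 CPM in hRBC and 99.5 against 23.6 CPM in 5% pdRBC. LIMCH1, a regulator of non-muscle myosin, stood at 21.8 against 6.83 and 54.8 against 10.7 CPM. EHD3, which acts in endocytic recycling, stood at 50.9 against 14.5 and 57.9 against 12.9 CPM. ART4, which carries the Dombrock blood group, stood at 63.0 against 19.0 CPM in hRBC and 73.7 against 21.9 CPM in 5% pdRBC. GAB1, a docking protein of receptor tyrosine kinases, was 3.61-fold (1.84 to 6.19) and 3.62-fold (2.56 to 5.00) higher. The mean folds of the transcriptional regulators SETBP1, GLIS3 and ZNF117 lay between 3.48 (GLIS3) and 3.90 (SETBP1). CCDC3, CNTNAP3, PKD1L1 and SEMA3G were also among the 15 highest, with mean folds from 3.36 (CNTNAP3) to 3.97 (CCDC3).

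Some genes of endothelial identity were called. Of 23 measured pan-endothelial genes 3 were higher and none lower, with a median log2 fold of 0.19. Over all measured genes 4.79% were higher and 2.22% lower. VWF, the von Willebrand factor that binds platelets, stood at 656 against 372 CPM in hRBC and 909 against 372 CPM in 5% pdRBC. Per barcode, the median VWF level was 609 CPM in hRBC members and 305 in remaining barcodes, and 810 and 282 CPM in 5% pdRBC. EMCN, the surface sialomucin endomucin, was 2.70-fold (2.31 to 3.12) higher in hRBC and 2.22-fold (2.02 to 2.43) in 5% pdRBC. MMRN1 (multimerin-1), a glycoprotein of platelets and endothelium, was 1.66-fold (1.41 to 1.94) and 1.83-fold (1.70 to 1.98) higher. Other endothelial markers were not called and went both ways. PECAM1, CLDN5, ERG, TIE1, TEK and KDR had mean log2 folds from 0.07 (TEK) to 0.57 (ERG). CDH5, ESAM and EGFL7 had mean log2 folds of -0.16, -0.34 and -0.32.

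Of 22 measured arterial genes 7 were higher, against 4.79% of all measured genes, and none lower, with a median log2 fold of 0.33. SEMA3G, a semaphorin of arterial endothelium, stood at 38.8 against 8.73 CPM in hRBC and 26.4 against 10.6 CPM in 5% pdRBC. HEY1, a target of Notch signalling, was 3.86-fold (2.02 to 6.52) and 2.15-fold (1.45 to 3.07) higher. SULF1, which removes sulfate from heparan sulfate, was 3.04-fold (2.32 to 3.89) and 3.22-fold (2.75 to 3.74) higher. EFNB2, the arterial ligand ephrin-B2, was 2.02-fold (1.66 to 2.43) and 1.88-fold (1.70 to 2.08) higher. VEGFC, a ligand of the lymphatic receptor FLT4, stood at 279 against 87.9 CPM in hRBC and 138 against 80.1 CPM in 5% pdRBC. Of 10 measured venous genes 1 was higher, CLU (clusterin), and none was lower, while the median log2 fold of 0.39 was close to that of the arterial list. The members held higher levels of some genes from both lists.

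Genes of the pathways that the rule genes belong to moved in part. Of 14 measured genes of the LIM domain binding complex, LDB2 included, 3 were higher and none lower; TCF4 and TCF12, which are E proteins, were 1.96-fold and 1.91-fold higher on the mean of the libraries, while LMO2 was 1.44-fold higher and not called. After the median of genes of like genomic span was taken away, TCF4 and TCF12 were no longer called, with log2 folds of 0.36 and 0.33 in place of 0.97 and 0.94. Of 26 measured junction genes 4 were higher and none lower, among them MAGI1, the polarity gene PARD3B and RAPGEF2, an activator of Rap1; F11R was 1.64-fold higher and not called. PARD3B and RAPGEF2 lost their calls in 12 and 14 of 23 alternative settings, and centred by span their log2 folds were 0.12 and 0.35 in place of 0.73 and 0.69. Of 7 measured genes of the renin-angiotensin and kinin systems, ACE alone was called, and PRCP, ANPEP and ECE1 were not, with mean log2 folds of 0.64, -0.63 and 0.21. Of 6 measured genes that encode DACH1, its relatives and its partner factors, DACH1 alone was called. The calls of the rule genes themselves follow from the choice of members.

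Endothelial transcription factors and signalling enzymes were higher in several cases. Of 27 measured lineage factors 6 were higher and 1 lower. MECOM, a zinc finger factor known from arterial endothelium and blood stem cells, stood at 574 against 187 CPM in hRBC and 563 against 211 CPM in 5% pdRBC. MEF2C was 3.12-fold (2.39 to 3.98) and 2.29-fold (1.96 to 2.66) higher and FOXO1, a factor of endothelial quiescence, 2.09-fold (1.64 to 2.62) and 1.57-fold (1.38 to 1.79). KLF4, a flow-responsive factor, was the lower one, 2.23-fold (1.34 to 4.36) and 2.48-fold (2.03 to 3.09). Of 12 measured genes of cyclic nucleotide signalling 6 were higher and none lower, with a median log2 fold of 0.77, which was 0.17 when centred by span. PDE4D, a phosphodiesterase that breaks down cyclic AMP, stood at 402 against 158 CPM in hRBC and 382 against 163 CPM in 5% pdRBC. Centred by span, PDE4D kept its call with a log2 fold of 0.69 in place of 1.29, and PDE4B did not, with 0.39 in place of 1.00.

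Of 22 measured basement membrane and matrix genes 7 were higher and none lower, with a median log2 fold of 0.64, or 0.33 centred by span. MGP, matrix Gla protein, an inhibitor of calcification, stood at 753 against 303 CPM in hRBC and 1222 against 305 CPM in 5% pdRBC. HSPG2 (perlecan), a proteoglycan of the basement membrane, stood at 1536 against 889 and 1612 against 806 CPM. FBN1 (fibrillin-1), COL5A2 and COL4A1 had mean folds of 2.36, 1.97 and 1.75. Of 8 measured genes of the insulin-like growth factor system 3 were higher, INSR, IGF1R and IGFBP4, with mean folds of 2.31, 1.86 and 1.60. IGFBP4 lost its call in 11 of 23 alternative settings, INSR in 7 of 21 and IGF1R in 6 of 23. SLC40A1 (ferroportin), the cell's iron exporter, stood at 67.8 against 23.7 CPM in hRBC and 70.5 against 27.1 CPM in 5% pdRBC.

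Genes lower in members included proliferation genes, cytokines and metallothioneins. APLN, the peptide apelin, had 0 UMIs in hRBC members against 45.6 CPM in remaining barcodes, at least 6.28-fold lower against a floor of 3 counts over the members. In 5% pdRBC it stood at 20.1 against 48.7 CPM, 2.38-fold lower (1.70 to 3.56). CXCL1 also had 0 UMIs in hRBC members against 37.5 CPM, at least 5.16-fold lower, and stood at 4.41 against 21.1 CPM in 5% pdRBC. FST (follistatin), which binds activin, was at 0 in hRBC members, at least 5.35-fold lower, and 2.33-fold lower (1.43 to 4.34) in 5% pdRBC. Of 14 measured tip cell genes, a list that holds APLN, 2 were lower and 2 higher, INSR and COL4A1, with a median log2 fold of -0.14. Of the 204 lower genes 18 were at 0 UMIs in hRBC members. The order of the lowest genes therefore rests on fitted values and is not a ranking of measured folds.

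PTX3, a pentraxin of innate immunity, stood at 12.1 against 110 CPM in hRBC and 21.4 against 116 CPM in 5% pdRBC. RGS4, a regulator of G protein signalling, stood at 29.1 against 96.9 and 12 against 103 CPM. PTHLH, the parathyroid hormone related peptide, stood at 4.84 against 23.5 and 4.41 against 31.7 CPM. HRCT1, LETM2 and TRBC2 each had 1 UMI in hRBC members, and their ratios there had wide intervals, for HRCT1 9.42-fold lower (2.51 to 559). In 5% pdRBC they were 4.28-fold (2.47 to 9.03), 4.71-fold (2.59 to 10.9) and 3.45-fold (1.94 to 7.63) lower.

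Of 16 measured G2 and M phase genes 7 were lower and none higher. The list's median log2 fold was -1.30, and -1.26 with genes at 0 set to their bound. MKI67, the proliferation marker, had 0 UMIs in hRBC members, at least 3.82-fold lower, and stood at 11.3 against 29.2 CPM in 5% pdRBC, 2.51-fold lower (1.61 to 4.40). Of 12 measured S phase genes 1 was lower, RRM2, a subunit of ribonucleotide reductase. Leaving out the 10% of barcodes highest in G2 and M phase genes kept 380 of the 440 higher calls and 156 of the 204 lower calls. Of 8 measured genes of leukocyte adhesion and chemokines 4 were lower and none higher. CXCL8 (interleukin-8) stood at 7.27 against 41.1 CPM in hRBC and 26.4 against 82.6 CPM in 5% pdRBC.

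Of 18 measured immediate early genes 5 were lower and none higher: FOSB, FOSL1, IER5, MYC and DUSP1. FOSL1, an AP-1 subunit, stood at 67.8 against 204 CPM in hRBC and 81.2 against 214 CPM in 5% pdRBC. FOS itself was at 24.2 against 27.1 and 94.4 against 108 CPM and was not called. ANKRD1 and AXL were the 2 lower genes among 19 measured YAP/TAZ targets, with ANKRD1 at 179 against 555 CPM in hRBC and 195 against 426 CPM in 5% pdRBC. HMOX1 (heme oxygenase-1), which breaks down heme, stood at 373 against 674 CPM in hRBC and 307 against 837 CPM in 5% pdRBC. HMOX1 and SRXN1 were the 2 lower genes and SLC40A1 the 1 higher gene among 18 measured genes of heme, iron and the NRF2 response. FOSB lost its call in 7 of 23 alternative settings, IER5 in 3 and DUSP1 and FOSL1 in none. INSIG1, the 1 lower gene of 17 for cholesterol synthesis, was 2.42-fold (1.69 to 3.71) and 3.33-fold (2.74 to 4.14) lower.

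MT2A was the gene whose level ran most strongly against the score, chosen after its values were seen. It stood at 940 CPM in hRBC members and 4597 in remaining barcodes, 4.89-fold lower (4.43 to 5.42). In 5% pdRBC it stood at 988 and 3728 CPM, 3.77-fold lower (3.59 to 3.97). MT1E, a second metallothionein, stood at 12.1 against 57.1 and 11.3 against 34.3 CPM. MT1X had 1 UMI in hRBC members and was not called. DKK1, an inhibitor of Wnt signalling chosen in the same way, stood at 41.2 against 192 CPM in hRBC and 38.4 against 141 CPM in 5% pdRBC.

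MT2A, MGP and VWF lay on a gradient over all passing barcodes rather than changing only at the limit of membership. MKI67 in hRBC differed mainly at the top, and MYH10 both at the top and below it. The barcodes were cut into 10 equal groups by the 6 genes. From the highest to the lowest group, MT2A went from 940 to 7208 CPM in hRBC and from 988 to 6652 CPM in 5% pdRBC. MGP ran the other way, from 753 to 84.9 CPM in hRBC and from 1222 to 36.8 CPM in 5% pdRBC. VWF ran from 656 to 159 CPM and from 909 to 90.1 CPM. MKI67 was at 0 UMIs in the highest group of hRBC and 3.85 CPM in the second, then 19.9 CPM in the lowest, so its difference lay at the top of the range. MYH10 in 5% pdRBC stood at 99.5 CPM in the highest group, then at 38.8, 39.0 and 39.8 CPM in the groups that followed. It fell further to 26.4 CPM in group 5 and 9.52 CPM in the lowest group. In hRBC it went from 60.6 CPM in the highest group to 13.6 CPM in the lowest.

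**Figure D3:**
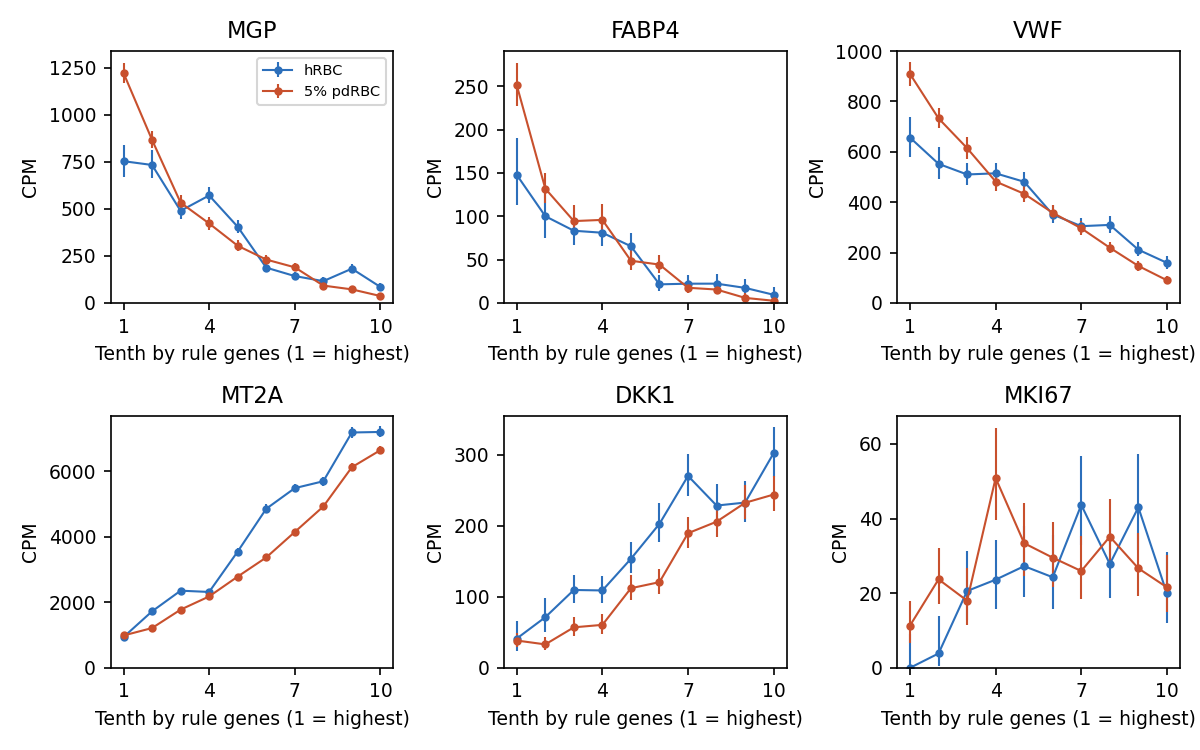
Level in CPM (y axes) of 6 genes in 10 equal groups of passing barcodes ranked by the 6 rule genes over both libraries (x axes, 1 is the highest, the members), for hRBC and 5% pdRBC; bars are exact Poisson 95% intervals of the UMI sums. MGP, FABP4 and VWF fall from group 1 to group 10, MT2A and DKK1 climb, and MKI67 is lowest in group 1.

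The genes most like the score, by the mean of both libraries' Pearson correlations over 769 and 1369 barcodes, were HSPG2 at 0.472, FAM155A at 0.451, VWF at 0.447 and MGP at 0.432. MECOM, TCF4, CALCRL, ANO2, WWTR1 and DOCK4 followed, down to 0.365. The most negative were MT2A at -0.521, HMGA1 at -0.489 and S100A10 at -0.448. Barcodes of a library share its depth and its preparation, and these values are descriptions. FAM155A, a subunit of a sodium leak channel complex, stood at 785 against 258 CPM in hRBC and 793 against 279 CPM in 5% pdRBC. HMGA1, a chromatin protein of dividing cells, stood at 669 against 1368 and 715 against 1355 CPM.

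Members were compared with the top 10% of barcodes by other gene sets. Of the 214 members 76 were also in the top 10% by MGP and FABP4, or 35.5% (29.1 to 42.3%), against 7.17% of remaining barcodes. The top 10% by VWF held 33.2% of members (26.9 to 39.9%), made up of 16.3% in hRBC and 37.4% in 5% pdRBC, and 7.43% of remaining barcodes. The top 10% by APLN and MEST held 2.80% of members against 10.8% of remaining barcodes, and that by G2 and M phase genes 4.67% against 10.6%. For KRT7, TGFB2 and FST the values were 4.21% and 10.7%, and for KLF2 and NOS3 5.14% and 10.6%. For CCN1, CCN2 and THBS1 they were 10.3% and 9.98%. These sets were equal in size, and the genes were counted in the same cells that gave the score.

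Genes with a long genomic span were more often higher in members. Span is the length of the gene from its first to its last base in GENCODE release 29, introns included. The median span was 186 kb for the higher genes, 17.5 kb for the lower genes and 35.7 kb for all measured genes. Of genes under 10 kb 1.04% were higher and 4.05% lower, and of genes of 300 kb or more 31.6% were higher and 1.29% lower. The median log2 fold went from -0.13 in the shortest genes to 0.60 in the longest, and Spearman's correlation of span and fold across 9169 genes was 0.40. Among the rule genes, LDB2 spans 397 kb, MAGI1 685 kb, DACH1 429 kb and MCTP1 581 kb, while ACE spans 21.3 kb and GASK1B 48.8 kb. MGP at 4.75 kb and FABP4 at 4.84 kb are short genes that were higher.

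**Figure D4:**
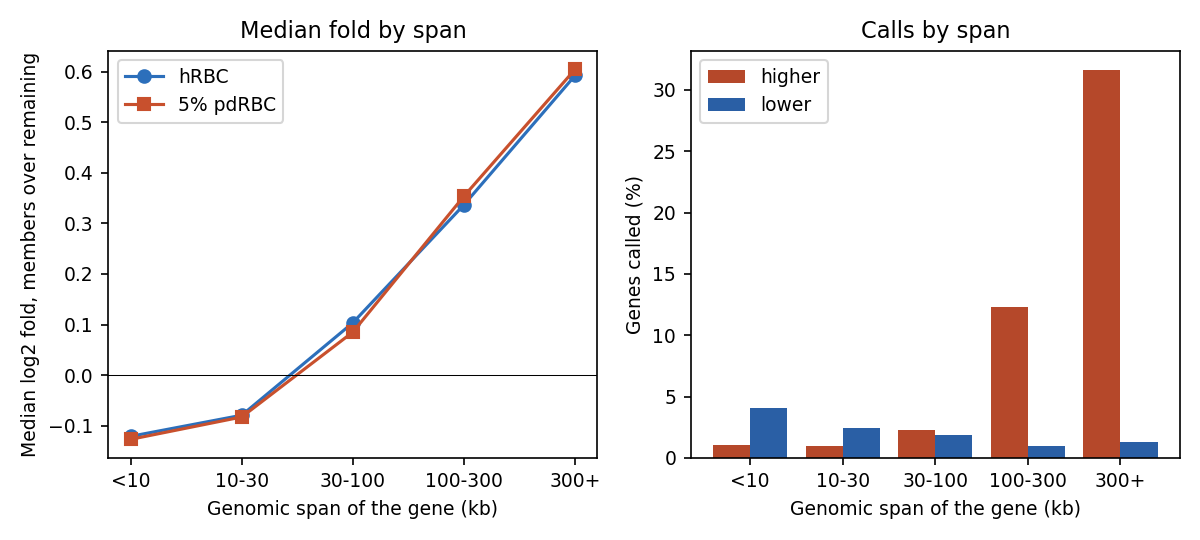
Median log2 fold of members over remaining barcodes in each library (left) and percentage of genes called higher or lower (right) for measured genes grouped by genomic span in kb (x axes). The medians rise with span in both libraries, and 31.6% of genes of 300 kb or more were called higher against 1.04% of genes under 10 kb.

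Long nuclear RNAs were higher in members in several cases, and nuclear-retained coding RNAs were not called. MALAT1, a long nuclear RNA, made up 1.10% of UMIs in hRBC members and 1.14% in 5% pdRBC members, against 0.693% and 0.698% in remaining barcodes. NEAT1, the RNA that builds nuclear paraspeckles, made up 0.389% and 0.371% against 0.193% and 0.219%. Of 8 measured long nuclear RNAs 5 were higher and none lower, while none of 16 measured nuclear-retained coding RNAs was called and their median log2 fold was 0.35. MEG3, also higher, lost its call in 14 of 23 alternative settings, MALAT1 in 6, NEAT1 in 2 and FTX in 1, centred by span. The mitochondrial share was 2.08% in hRBC members and 2.19% in 5% pdRBC members, against 1.82% and 1.84%. Whether reads in introns were counted is not given in the sources used here. The part of span, nuclear RNA and depth in the differences between members and remaining barcodes was not tested. After the median of genes of like span was taken away, 177 genes were higher, 160 of them among the 440, and 254 were lower. Among 63 higher genes drawn by the naming rule or singled out afterwards, 27 lost their call in this setting, EMCN, VWF, FOXO1, HSPG2, COL4A1, IGF1R, INSR, VEGFC and LIMCH1 among them, while SOX5, FABP4, MGP, MECOM, MEF2C and SULF1 kept it. Of 41 such lower genes 1 lost it. Without the 10% of barcodes highest in MALAT1 and NEAT1, 250 genes were higher, 223 of them among the 440. Both alternatives were chosen after seeing the data.

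The last comparison sets 5% pdRBC against hRBC within members, to see what a small share of stiff red cells went with in these cells. Of 5957 genes with 50 or more UMIs in members, 226 were higher with 5% pdRBC by 1.5-fold or more with an interval leaving out 1, or 3.79%. Lower were 171 genes, or 2.87%. The list counts that follow are to be read against these shares. Each side is 1 library, with 412834 UMIs in hRBC members and 1588308 in 5% pdRBC members, so intervals cover counting error only. No adjustment was made for the number of genes, and 95% intervals leave out 1 for part of the genes that do not differ, so single calls with few UMIs are uncertain. The median gene had a log2 fold of 0.00. The same fold in the remaining barcodes had a Pearson correlation with it of 0.280 across genes. Of the 226 higher genes 166 were also above 1 in remaining barcodes and 19 were 1.5-fold higher there, and of the 171 lower genes 122 were below 1 and 5 were 1.5-fold lower. The shares of all 5957 genes within these limits were not counted. Their median log2 fold in remaining barcodes was 0.02, so uncalled genes also lay above or below 1 there.

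Immediate early genes were higher with 5% pdRBC in 8 of 16 measured cases and lower in none, with a median log2 fold of 0.87 in members and 0.63 in remaining barcodes. FOS, an AP-1 subunit, stood at 24.2 CPM in hRBC members and 94.4 CPM in 5% pdRBC members, 3.73-fold higher (2.06 to 8.30), and was 3.96-fold higher (3.47 to 4.54) in remaining barcodes. DUSP1, a phosphatase that switches off MAP kinases, was 2.97-fold higher (1.67 to 6.35) in members and 1.76-fold (1.64 to 1.90) in remaining barcodes. FOSB was 2.55-fold (1.25 to 6.98) and 2.44-fold (2.19 to 2.73) higher. ATF3, a stress-induced factor chosen after its values were seen, was 2.23-fold (1.17 to 5.30) higher in members and 3.21-fold (2.84 to 3.65) in remaining barcodes. EGR1, chosen likewise, had 6 UMIs in hRBC members; it was 2.14-fold higher in members (0.988 to 6.54), which was not called, and 8.49-fold (6.86 to 10.7) in remaining barcodes. The difference between the members' and the remaining barcodes' folds could not be tested with 1 library a group. In the top 10% of barcodes by these genes were 0 of 43 hRBC members (95% interval up to 8.22%) and 16 of 171 5% pdRBC members, or 9.36%. Of the remaining barcodes 3.58% in hRBC and 14.4% in 5% pdRBC were in it.

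Among the other higher genes, SOCS3, a feedback inhibitor of cytokine signalling, stood at 9.69 and 40.9 CPM in hRBC and 5% pdRBC members, 3.78-fold higher (1.57 to 16), and was 1.65-fold (1.43 to 1.92) higher in remaining barcodes. ENTPD1 (CD39), which breaks down extracellular ATP, had 3 UMIs in hRBC members and 59 in 5% pdRBC members, a ratio of 4.42 (1.67 to 25.5), with 1.19 (0.831 to 1.73) in remaining barcodes. GPC5, a glypican, was 3.14-fold higher (1.56 to 8.55) in members and 1.01-fold (0.753 to 1.36) in remaining barcodes. NFATC2, a calcium-regulated factor, was 3.09-fold (1.27 to 13.1) and 1.98-fold (1.68 to 2.35) higher. CDC42SE2 and TNFAIP8L1 were 3.24-fold and 3.26-fold higher in members and 1.05-fold and 1.41-fold in remaining barcodes, and BEST1 was 3.56-fold (1.85 to 8.94) and 1.5-fold (1.33 to 1.70) higher. KIAA1549L and NOP14 had 3 UMIs each in hRBC members, with ratios of 3.68 (1.37 to 21.3) and 3.53 (1.31 to 20.5). These counts were small in hRBC, where members held 10 or fewer UMIs of every gene in this paragraph. ENTPD1 and KIAA1549L kept their calls in the 18 and 15 alternative settings in which they were measured, a 2-fold threshold not counted. NOP14 lost its call in 5 of 12 such settings, CDC42SE2 in 5 of 21 and NFATC2 in 3 of 18. GPC5 lost its call in 2 settings and SOCS3, BEST1 and TNFAIP8L1 in 1 each.

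FABP4 and MGP, already high in members, were higher still with 5% pdRBC. FABP4 stood at 148 CPM in hRBC members and 251 CPM in 5% pdRBC members, 1.69-fold higher (1.30 to 2.26), and its fold in remaining barcodes was 1.12 (0.994 to 1.27). MGP stood at 753 and 1222 CPM, 1.62-fold higher (1.44 to 1.83), with 1.00 (0.957 to 1.05) in remaining barcodes. The MGP call ended in 4 of 23 alternative settings, and its log2 fold of 0.70 was 0.14 with the 6 genes weighted equally. FABP4 kept its call in all 23. Single members varied widely: FABP4 had no UMI in 26 of 43 hRBC and 82 of 171 5% pdRBC members. The median MGP level per barcode was 412 CPM in hRBC members and 603 CPM in 5% pdRBC members. The highest single values were 3196 and 16056 CPM, and the intervals do not cover this spread. FABP5, a relative of FABP4, was 2.31-fold (1.82 to 3.00) and 1.43-fold (1.34 to 1.53) higher. None of the 6 rule genes was called, with folds from 1.06-fold lower for MCTP1 (0.947 to 1.18) to 1.30-fold higher for MAGI1 (1.06 to 1.62). MT2A stood at 940 and 988 CPM and was not called.

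LINGO1, known as a receptor component of neurons, was lowest with 5% pdRBC. It stood at 136 CPM in hRBC members and 17.6 CPM in 5% pdRBC members, 7.63-fold lower (4.81 to 12.6), and was 8.81-fold lower (7.67 to 10.2) in remaining barcodes. CYP1B1, a cytochrome P450 known to respond to flow and to the aryl hydrocarbon receptor, stood at 82.4 and 20.8 CPM, 3.96-fold lower (2.38 to 6.60), and was 1.28-fold lower (1.07 to 1.52) in remaining barcodes. With MCTP1 left out of the score, the CYP1B1 call ended, with a log2 fold of -0.58 in place of -1.99. SLC9A3R2, a scaffold protein that binds membrane transporters, stood at 693 and 280 CPM, 2.47-fold lower (2.12 to 2.88), and was 1.46-fold lower (1.42 to 1.5) in remaining barcodes. PRKCA, protein kinase C alpha, was 2.44-fold (1.83 to 3.23) lower in members and 1.44-fold (1.34 to 1.55) in remaining barcodes. VEGFC stood at 279 and 138 CPM, 2.02-fold lower (1.60 to 2.54), and was 1.10-fold lower (1.00 to 1.20) in remaining barcodes. Of 18 measured arterial genes 4 were lower and 2 higher, with a median log2 fold of -0.28 in members and 0.03 in remaining barcodes. Over all genes measured in members 2.87% were lower and 3.79% higher. The other lower genes among the 10 lowest, ADAMTSL1, PPP1R21, LDOC1, FBXL20, TENT4B and EXOC3L1, were 2.40-fold (EXOC3L1) to 2.90-fold (ADAMTSL1) lower in members. LINGO1, SLC9A3R2, PRKCA and ADAMTSL1 kept their calls in all such settings that measured them, and TENT4B lost its call in 4 of 15, EXOC3L1 and PPP1R21 in 3 and LDOC1 and FBXL20 in 2.

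**Figure D5:**
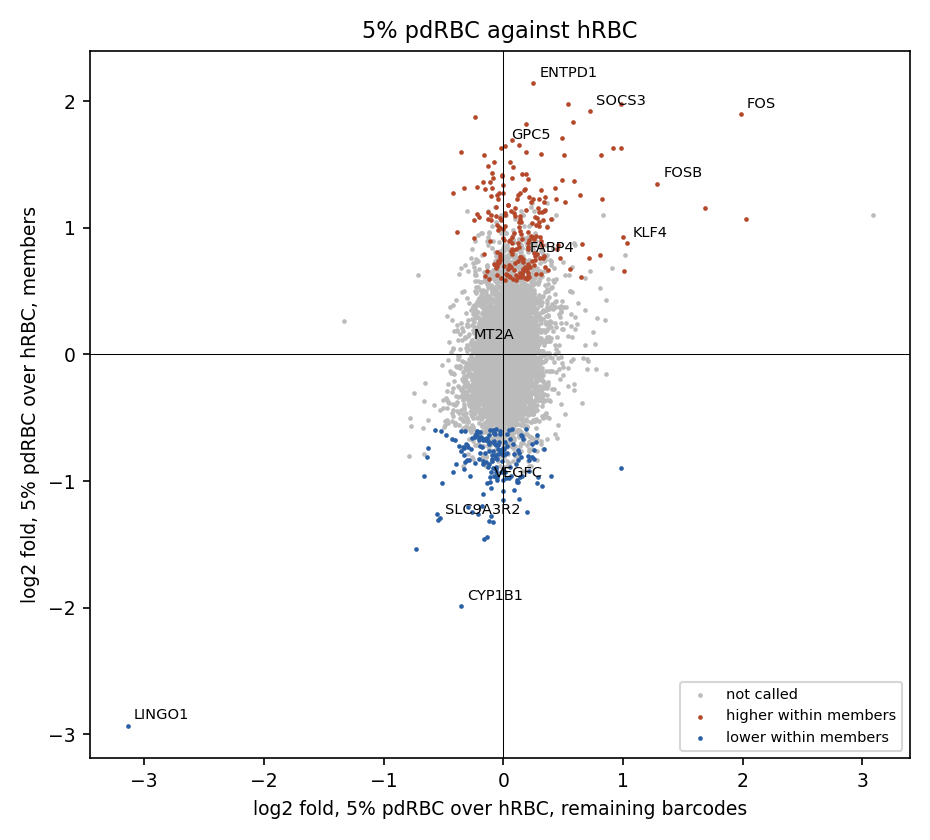
Log2 fold of 5% pdRBC over hRBC in remaining barcodes (x axis) and in members (y axis) for each of 5957 genes measured in members, with genes called within members in colour. LINGO1 is low and FOS high on both axes, while ENTPD1, FABP4 and CYP1B1 were called in members, CYP1B1 not with MCTP1 left out of the score, and lie near 0 in remaining barcodes.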

How the data were processed

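The 2 deposited matrices give whole UMI counts, not normalized. Per the file headers, the authors used Cell Ranger 7.0.0, and per the submitters' processing notes the build was GRCh38. The annotation release, strand use and intron counting were not given in the sources used here. No deposited barcode has under 500 UMIs. Gene positions came from GENCODE release 29 (34616 of 36601 genes, 94.6%, matched by identifier) and promoters from RefSeq (5 of the 6 rule genes matched). No doublet caller was run and no barcodes were removed as doublets. Overlapping genes and near-identical gene families are uncertain in these counts.

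Counts were summed over members and over remaining barcodes of each library (Python 3.11.15, NumPy 2.4.6, SciPy 1.17.1) and divided by total UMIs. Folds had 0.5 UMIs added and exact Clopper-Pearson 95% intervals, and scripts were tested on simulated data. A gene needed 200 UMIs over passing barcodes, or 50 within members. Named were the 6 rule genes, the 15 highest and 10 lowest called genes of members against remaining barcodes and the 10 highest and 10 lowest of 5% pdRBC against hRBC at 20 CPM or more, up to 4 genes of each of 45 lists and the 10 genes most like the score; mitochondrial, ribosomal, hemoglobin, XIST, Y-linked, clone-named and LINC genes were left out. Some genes and lists that this rule names are not reported here. The members and lists were chosen with earlier results of these data known. Alternatives varied the barcode and gene minimums, the size of the top group, the score, the scaling and the threshold.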

Additional observations from a re-analysis of the deposited data

Results flagged for a closer look

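Barcodes under 5000 UMIs were outside the comparisons, and the 6 rule genes were detected there in both libraries above what a count of 0 allows. In the 3089 such hRBC barcodes, with a median of 1115 UMIs, 2926 UMIs came from the 6 genes, or 665.5 CPM. In the 265 such 5% pdRBC barcodes, with a median of 2960 UMIs, there were 1025 UMIs of the 6 genes, or 1371 CPM. Among barcodes that passed, the sums stood at 503 and 547 CPM in the remaining barcodes and at 2405 and 2560 CPM in members. The shallow barcodes were not sorted into members, so their sums are not directly comparable with either set.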

How the results depend on the processing

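The difference in the share of members, 6.90 points, was 3.96 for the top 5% and 13.2 for the top 20%. Ranking within each library gave -0.0057, as that ranking fixes the share. Leaving out any 1 of the 6 genes gave 6.49 to 8.12. The 440 genes higher in members became 188 at 10000 UMIs or more, 287 without LDB2 in the score, 246 with members chosen on other UMIs than those summed, 131 at 2-fold, 177 centred by gene span and 250 without barcodes high in MALAT1 and NEAT1. The 204 lower genes became 111 with separate UMIs, 390 with barcodes weighted equally, where no interval was required, and 87 at 2-fold. With 5% pdRBC, the 226 higher genes became 114 for the top 5%, 372 when ranked within each library, 601 with barcodes weighted equally, 110 at 2-fold and 134 at the higher gene minimum. The 171 lower genes became 113 at 10000 UMIs or more, 328 weighted equally, 29 at 2-fold and 93 at the higher gene minimum. MYH10, higher with 5% pdRBC in members, had a log2 fold of -0.15 at 10000 UMIs or more. Over all settings but the 2-fold threshold, 21 of 63 higher and 17 of 41 lower named genes kept their call for members against remaining barcodes, and 4 of 14 higher and 4 of 10 lower with 5% pdRBC. The cause was not tested. No paired analysis was possible because each group is 1 library and the labels carry no shared replicate numbers. Depth limits the hRBC members most: 0 UMIs of a gene in their 412834 UMIs allows up to 7.27 CPM.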

Other observations

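Some genes of other functions, chosen after their values were seen, also differed between members and remaining barcodes. ALDH1A1, which makes retinoic acid, stood at 116 CPM in hRBC members and 41.0 CPM in remaining barcodes, and at 187 and 60.5 CPM in 5% pdRBC. ODC1, the first enzyme of polyamine synthesis, stood at 179 against 408 CPM in hRBC and 209 against 476 CPM in 5% pdRBC. S100A10, a partner of annexin A2 at the cell surface, stood at 1187 against 1952 and 1043 against 1813 CPM.

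Of other lists, single genes were lower in members, where 2.22% of all measured genes were. Among 15 measured p53 targets, AEN, GDF15 and PHLDA3 were lower, with mean folds of 2.26, 1.76 and 1.76, while the list's median log2 fold was 0.00. HERPUD1 and PPP1R15A were the 2 lower genes of 15 in the unfolded protein and integrated stress list, 2.62-fold and 1.90-fold lower on the mean. LDHA, lactate dehydrogenase A, was the 1 lower gene of 16 for glycolysis and hypoxia, 1.77-fold lower in each library. ANGPTL4, a lipase inhibitor, stood at 26.6 against 111 CPM in hRBC and 32.7 against 139 CPM in 5% pdRBC.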
